A study of Homo sapiens with 6 samples.

Results

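The KLF family comprises the Krüppel-like factors, transcription factors that bind CACCC and other GC-rich DNA elements through zinc fingers near the C terminus. Of the family, 10 genes were followed here, taken by gene name with no cut on their values, although earlier results of these data were known when the list was drawn up: KLF1, KLF2, KLF3, KLF6, KLF7, KLF10, KLF11, KLF12, KLF13 and KLF16. All 10 have a row among the 62754 genes of the deposited tables, and 8 were tested. A test needed a TPM (transcripts per 1000000, a level per transcript length) of at least 1 in 3 or more of the 6 libraries. KLF7 and KLF12 were below this filter.

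Because the fingers are alike across the family, KLF proteins compete for related sites, and the regions outside the fingers set what each one does. KLF1 is the erythroid member, which activates adult beta-globin and many red cell genes. KLF3 and KLF12 recruit the corepressor CtBP, and KLF10, KLF11, KLF13 and KLF16 bind the corepressor SIN3A. KLF2, KLF6 and KLF7 are mainly activators.

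The libraries are poly(A) RNA from HUDEP-2, an immortalised human erythroid progenitor line, transduced with lentivirus and harvested at 72 h. One group of 3 biological replicates received an shRNA against MEN1, named MEN1sh2, and the other group of 3 a control shRNA. MEN1 encodes menin, a subunit of the MLL1 histone methyltransferase complex, which the series examines as a regulator of fetal hemoglobin. Cells of both groups were kept in SFEM medium with 3 units per ml of EPO, 50 ng per ml of SCF, 1e-06 M dexamethasone and 1 µg per ml of doxycycline, and had 48 h of puromycin at 2 µg per ml from 24 h after infection. A single MEN1 hairpin in a single cell line was used, so loss of menin and any off-target effect of that hairpin cannot be told apart.

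MEN1 stood at 6.29, 6.44 and 6.88 TPM in MEN1 shRNA replicates 1, 2 and 3 and at 41.2, 39.6 and 37.1 TPM in the controls, which leaves 16.6% of the control mean. Aligned bases, inferred from the deposited values, ranged from 5565 to 10811 Mb per library. The erythroid label was checked on 8 marker genes, all of them at 96.6 TPM or more in every library. Their summed TPM was 76265 to 84214 with the MEN1 shRNA against 45268 to 49430 in the controls. Most of this sum was HBB (means of 50170.5 and 30237.5 TPM) and HBA1 (23556.5 and 12208.2 TPM). By the test below, 6 of the 8 rose, while GATA1 and EPOR did not pass (log2 fold change 0.06 and 0.02). Of 11 markers of other blood cells, 7 stayed under 1 TPM throughout and PF4 was listed at 0 in all 6. The tryptase gene TPSAB1 lay at 420.8 to 746.6 TPM. It made up most of the summed marker TPM, which was 447 to 535 with the MEN1 shRNA and 628 to 802 in the controls. CPA3, another marker on this list, was at 0.331 to 0.835 TPM. The 4 markers tested, PTPRC, LYZ, ITGA2B and TPSAB1, were all called lower, as were 31.5% of all tested genes. LYZ reached 1 TPM only in the controls, so its fall was fixed by the filter. In bulk RNA, fewer cells of a type and less RNA per cell cannot be told apart, and the part of these markers in the results below was not tested.

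Promoter windows show the DNA around the start sites of members the results turn on. The RefSeq promoter table (build GRCh38.p14, 250 bases before to 50 after a gene's start) holds 15 windows for 8 of the 10 members and none for KLF3 and KLF10. The windows of the erythroid member KLF1, of the riser with the highest fold change (KLF2), of KLF6 and of the member that fell (KLF16) are printed 5′ to 3′. Capitals mark matches on either strand to the KLF-type box CACCC, the GATA factor motif GATAA, the GC box GGGCGG, the CCAAT box and a palindromic MEF2 consensus of 10 letters, searched exactly, and adjoining or overlapping matches run together.
KLF1, chr19:12887152-12887451, minus strand: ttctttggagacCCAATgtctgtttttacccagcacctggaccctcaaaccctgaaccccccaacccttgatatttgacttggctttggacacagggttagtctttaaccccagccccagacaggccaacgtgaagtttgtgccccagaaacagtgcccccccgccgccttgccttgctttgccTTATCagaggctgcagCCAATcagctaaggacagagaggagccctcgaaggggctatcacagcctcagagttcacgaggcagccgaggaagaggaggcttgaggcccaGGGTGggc
KLF2, chr19:16324576-16324875, plus strand: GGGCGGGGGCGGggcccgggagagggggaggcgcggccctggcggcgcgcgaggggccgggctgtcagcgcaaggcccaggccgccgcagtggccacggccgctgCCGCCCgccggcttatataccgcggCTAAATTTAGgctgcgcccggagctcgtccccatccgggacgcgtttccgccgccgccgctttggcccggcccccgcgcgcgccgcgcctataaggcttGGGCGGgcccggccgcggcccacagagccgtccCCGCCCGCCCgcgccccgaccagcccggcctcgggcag
KLF6, chr10:3785160-3785459, minus strand: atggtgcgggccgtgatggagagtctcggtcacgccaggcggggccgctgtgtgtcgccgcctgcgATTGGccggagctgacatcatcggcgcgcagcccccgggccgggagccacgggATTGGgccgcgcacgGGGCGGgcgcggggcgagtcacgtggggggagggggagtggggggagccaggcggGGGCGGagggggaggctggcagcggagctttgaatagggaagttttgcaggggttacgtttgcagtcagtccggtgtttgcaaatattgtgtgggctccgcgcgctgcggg
KLF16, chr19:1863530-1863829, minus strand: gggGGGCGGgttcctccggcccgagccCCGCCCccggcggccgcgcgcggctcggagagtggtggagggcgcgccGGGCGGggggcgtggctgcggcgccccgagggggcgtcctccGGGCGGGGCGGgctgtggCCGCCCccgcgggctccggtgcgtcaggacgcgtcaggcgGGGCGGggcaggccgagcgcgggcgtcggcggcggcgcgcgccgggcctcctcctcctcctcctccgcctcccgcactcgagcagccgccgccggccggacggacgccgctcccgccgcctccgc

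The KLF1 window holds 1 GATAA, 1 CACCC and 2 CCAAT matches and no GC box, with a GC content of 57%. The windows of KLF2, KLF6 and KLF16 hold 6, 2 and 7 GC box matches and neither CACCC nor GATAA, and KLF6 has 2 CCAAT matches, as many as KLF1. Their GC content is 80.7%, 70.7% and 86%, against a median of 58.7% over all 35116 windows of the table. The KLF13 window, not printed, has 78.3% GC, 3 GC box, 1 CACCC and 2 CCAAT matches. KLF11, which did not pass the test of expression, has a pair of windows with 77.3% and 75.3% GC and 2 and 7 GC box matches, so these features did not separate members that changed from those that did not pass. Over all windows, CACCC is found in 59.9%, GATAA in 22.7%, GGGCGG in 45% and CCAAT in 34.6%. The MEF2 string, the middle block of capitals in the KLF2 window that is rich in A and T, is found in 0.0655% of windows. It is an exact string of 10 letters, so this share cannot be set beside those of motifs of 5 or 6 letters. A match is a string of letters in the window and no measurement of binding.

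With the MEN1 shRNA, 5 of the 8 tested members rose (KLF2, KLF3, KLF6, KLF10 and KLF13), 1 fell (KLF16) and 2 did not pass the test (KLF1 and KLF11). The ratio of MEN1 shRNA to control mean TPM was 27.5 for KLF2, 2.01 for KLF6, 1.81 for KLF10, 1.26 for KLF13 and 1.22 for KLF3, and KLF16 fell to 50.7% of its control mean. The test was limma on log2(TPM + 1), a scale that understates changes of low genes, with Benjamini-Hochberg adjustment over 14294 genes and a threshold of 0.05. By the same rule 53.6% of all tested genes were called, 22.1% higher and 31.5% lower. The median log2 fold change was 0.30 over the 8 tested members and -0.07 over all tested genes. KLF2 passed the filter only through the MEN1 shRNA libraries, so it had to differ, and neither this count nor this median stands as support for a family-wide change. Groups did not overlap in 4 members with higher and 1 with lower values. Of all tested genes, 25.8% and 35.9% separate in these directions and 61.8% in either. KLF2 is 1 of the 4, and its separation was fixed by the filter.

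**Figure D1:**
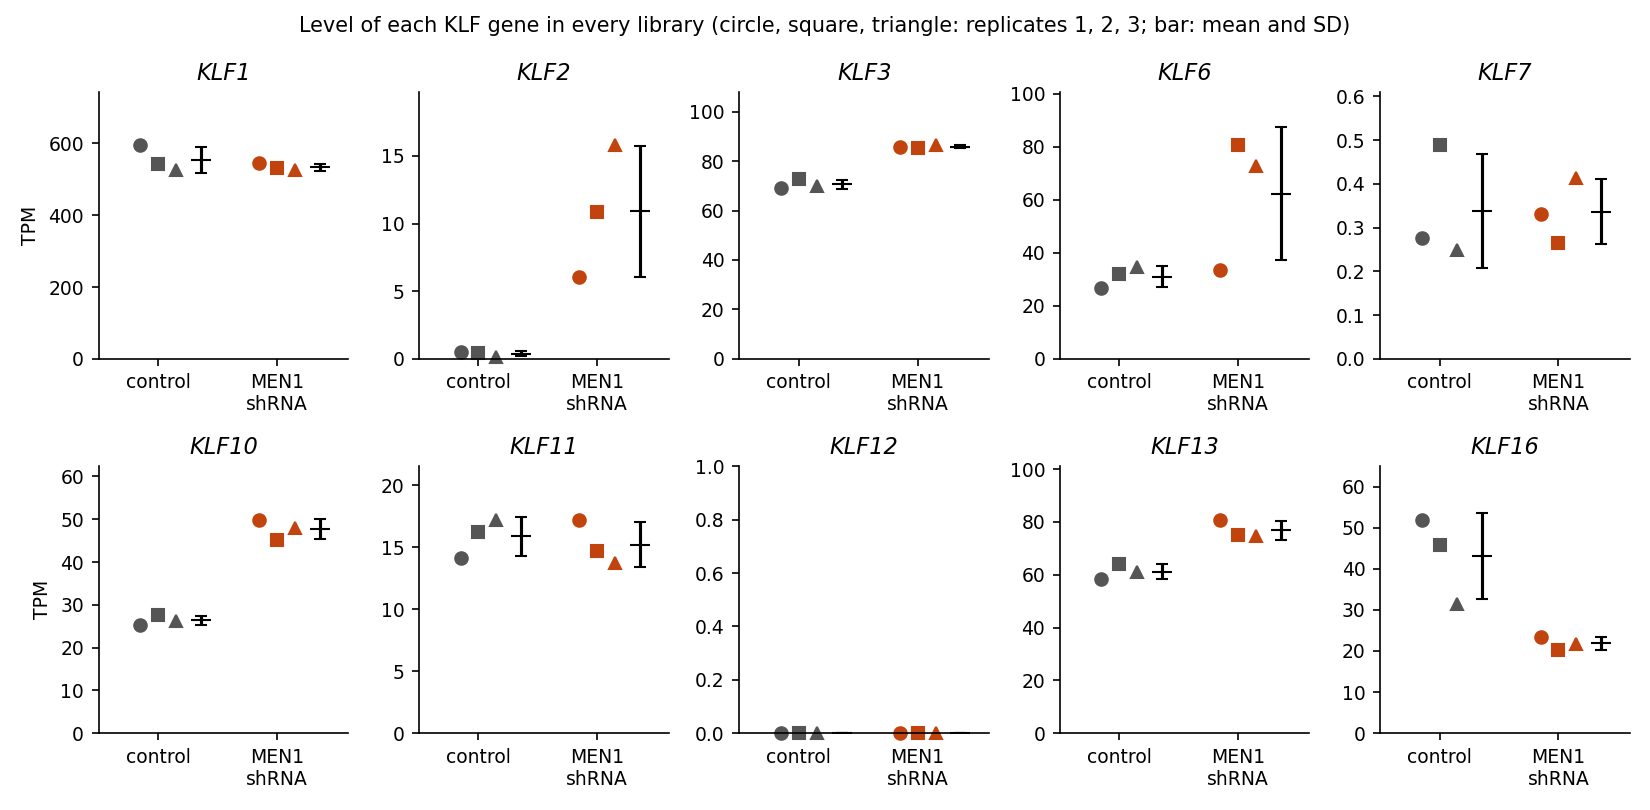
TPM of the 10 KLF genes, 1 panel per gene with its own axis from 0, in the control shRNA (grey) and MEN1 shRNA (orange) libraries; black bars give the mean and SD over 3 libraries. KLF2 lies at 6.06 to 15.8 TPM with the MEN1 shRNA and at 0.168 to 0.548 in the controls, MEN1 shRNA replicate 1 falls among the controls for KLF6, and KLF12 is at 0 throughout.

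KLF1, the erythroid activator on chromosome 19 (ENSG00000105610, 12884422 to 12887201, minus strand), was by far the most abundant member. It measured 543.9, 530.9 and 524.8 TPM in MEN1 shRNA replicates 1, 2 and 3 and 594.0, 542.1 and 524.3 TPM in the controls. The groups overlapped, and the spread came mostly from control replicate 1. The log2 fold change was -0.05 (95% interval -0.19 to 0.09, adjusted p 0.508 in limma) and the exact 2-sided permutation p was 0.7. KLF1 ranked between 195 and 230 by TPM among all genes of a library.

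Genes known to depend on KLF1 in red cells changed in both directions, more of them upward. Of 19 such genes 18 were tested, and 12 rose, 5 fell and ANK1 did not pass, with a median log2 fold change of 0.74 against -0.07 over all genes, where 22.1% rose and 31.5% fell. SLC4A1, the band 3 anion exchanger, rose from 112 ± 4.17 to 429 ± 23.5 TPM (SD, n = 3 each; log2 fold change 1.93). DMTN, which encodes the membrane skeleton protein dematin, rose by 1.37, the cell cycle factor E2F2 by 1.31 and the alpha-globin chaperone AHSP by 0.98 on the log2 scale. A4GALT, the synthase of the P1 and Pk blood group antigens, fell from 81.2 ± 3.36 to 29.0 ± 3.82 TPM. Adjusted p-values in limma ran from 8.37e-06 (SLC4A1) to 3.64e-05 (A4GALT). Of the erythroid markers whose sum was higher with the MEN1 shRNA, 3, HBB, AHSP and ALAS2, are also on this list, and BCAM stayed under 1 TPM.

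KLF2, an activator best known from endothelial cells and T cells and from embryonic globin expression in primitive red cells, lies on the same chromosome (ENSG00000127528, 16324826 to 16328685, plus strand). It measured 6.06, 10.8 and 15.8 TPM with the MEN1 shRNA and 0.548, 0.473 and 0.168 TPM in the controls. The groups did not overlap, and replicate 1 was the lowest of the MEN1 shRNA group. Means of 10.9 ± 4.86 and 0.396 ± 0.201 TPM (SD, n = 3 each) gave the ratio of 27.5. The log2 fold change of TPM + 1 was 3.01 (SE 0.302). Since the filter favoured KLF2, its adjusted p of 1.58e-04 in limma is no support. The limma fit without that filter, over 35241 genes above 0 TPM in at least 1 library, gave an adjusted p of 0.0023. Coverage in the controls was 0.535 to 2.31 reads per base against 21.0 to 40.8 with the MEN1 shRNA, so the control level, and with it the ratio, is known only roughly. Leaving out 1 library at a time gave ratios of 21.3 to 34.0. The nearest tested genes on either side moved the other way: AP1M1 had a log2 fold change of -0.65 and EPS15L1 of -0.67, with adjusted p-values of 0.0256 and 1.30e-04.

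KLF6, an activator induced early after growth and injury signals (ENSG00000067082, chromosome 10, 3775996 to 3785281, minus strand), measured 33.7, 80.5 and 72.9 TPM with the MEN1 shRNA. In the controls it measured 26.6, 31.9 and 34.6 TPM. Replicate 1 of the MEN1 shRNA sat inside the control range and the other two at more than any control. limma gave KLF6 a log2 fold change of 0.90 (SE 0.300, adjusted p 0.0369), and the exact 2-sided permutation p was 0.2. The other called members, KLF2, KLF3, KLF10, KLF13 and KLF16, each had a permutation p of 0.1, the smallest that 3 against 3 libraries allow. The KLF6 call rests on narrow ground: it was lost when any library other than MEN1 shRNA replicate 1 was left out (adjusted p 0.0583 to 0.114). Leaving out that replicate gave 1.28 (adjusted p 2.58e-04), and the controls then lay wholly below.

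KLF7, an activator mostly studied in neurons (ENSG00000118263, chromosome 2, 207074137 to 207173856, minus strand), was hardly present. MEN1 shRNA replicates 1, 2 and 3 had 0.331, 0.266 and 0.414 TPM, against 0.277, 0.488 and 0.248 in control replicates 1, 2 and 3. The groups overlapped, coverage was at most 0.247 reads per base, and no difference was detectable at this depth.

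Of the CtBP-binding repressors, KLF3 was well expressed and KLF12 was not seen. KLF3 (ENSG00000109787, chromosome 4, 38664197 to 38701517, plus strand) is itself switched on by KLF1 in red cell precursors and binds many of the same sites. It measured 85.7, 85.1 and 86.3 TPM with the MEN1 shRNA and 69.0, 72.7 and 70.0 TPM in the controls. The groups were tight and separate, and the rise was small, with 0.28 as log2 fold change (SE 0.0531, adjusted p 0.00324 in limma). The opposite-strand gene KLF3-AS1, which overlaps it, reached at most 0.535 TPM. KLF12 (ENSG00000118922, chromosome 13, 73686089 to 74134404, minus strand) is listed at 0 in all 6 libraries.

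The ratio of KLF1 to KLF3 TPM, a description of an activator and a repressor that share sites, was 6.34, 6.24 and 6.08 in the MEN1 shRNA libraries, where control replicates 1, 2 and 3 had 8.61, 7.46 and 7.49. No MEN1 shRNA library reached a control. The means were 6.22 ± 0.134 and 7.85 ± 0.659 (SD, n = 3 each), and the ratio, formed after the values were seen, carries no test.

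Among the SIN3A-binding members, KLF10 and KLF13 rose, KLF11 did not pass the test and KLF16 fell. KLF10, first described as a gene induced early by TGF-beta (ENSG00000155090, chromosome 8, 102648784 to 102655725, minus strand), measured 49.9, 45.2 and 48.0 TPM with the MEN1 shRNA. In the controls it measured 25.3, 27.5 and 26.2 TPM. The lowest MEN1 shRNA library was well above the highest control, and the means, 47.7 ± 2.35 and 26.3 ± 1.10 TPM (SD, n = 3 each), stood in a ratio of 1.81. For KLF10 limma gave a log2 fold change of 0.83 (SE 0.0692, adjusted p 7.83e-05).

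KLF13, a factor reported to act on gamma-globin and on chemokine genes (ENSG00000169926, chromosome 15, 31326835 to 31435665, plus strand), measured 80.9, 75.0 and 74.5 TPM with the MEN1 shRNA. The controls measured 58.2, 64.0 and 61.2 TPM, all below. For KLF13 limma gave a log2 fold change of 0.32 (SE 0.0645, adjusted p 0.00393). KLF11, its relative also linked to gamma-globin (ENSG00000172059, chromosome 2, 10042849 to 10054836, plus strand), measured 17.2, 14.7 and 13.8 TPM against 14.2, 16.3 and 17.2 TPM. These groups overlapped almost fully, with a log2 fold change of -0.06 (95% interval -0.32 to 0.20, adjusted p 0.684 in limma).

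KLF16, a repressor of GC-rich promoters (ENSG00000129911, chromosome 19, 1852399 to 1863579, minus strand), was the one member that fell. It measured 23.4, 20.3 and 21.8 TPM with the MEN1 shRNA and 52.0, 45.8 and 31.5 TPM in the controls. The MEN1 shRNA libraries were close to each other and all lower, while control replicate 3 stood nearer to them than control replicates 1 and 2. For KLF16 limma gave a log2 fold change of -0.92 (SE 0.171, adjusted p 0.00279). Without control replicate 1, 2 or 3 it was -0.77, -0.86 and -1.13.

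Control replicate 3 stood apart further in the deposited gene coverage. Scaled for depth into FPKM units, KLF16 coverage was 22.7, 19.0 and 6.42 in control replicates 1, 2 and 3 and 5.15, 4.59 and 4.83 with the MEN1 shRNA. FPKM divided by this coverage, which is 1 for a gene with a single transcript, was 1.06 and 1.09 in control replicates 1 and 2 and between 2.07 and 2.23 in the other 4 libraries. The relation of FPKM to coverage thus differed between libraries of the same group, and its cause was not tested, since the gene tables hold no isoforms. On the coverage scale the log2 fold change was -1.38 (adjusted p 0.0382 in limma), and the control mean was 3.30 times the MEN1 shRNA mean. Without control replicate 1, 2 or 3 it was 2.61, 3.00 and 4.29 times. The size of the fall thus depends on the quantity and on the control libraries used, while its direction was the same in all of these.

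**Figure D2:**
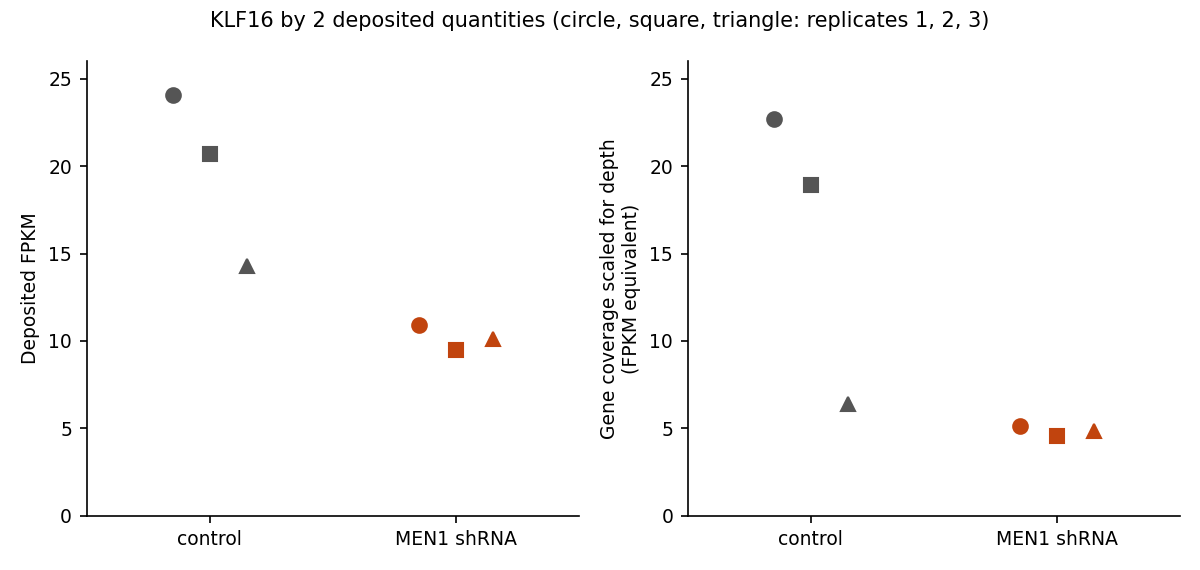
KLF16 in every library as deposited FPKM (left) and as gene coverage scaled for depth (right), on the same axis from 0, in control shRNA (grey) and MEN1 shRNA (orange) libraries. On the right, control replicate 3 (triangle) lies at 6.42, near the MEN1 shRNA libraries at 4.59 to 5.15 and far below control replicates 1 and 2 at 22.7 and 19.0.

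Ordered by control mean, the levels ran from KLF1 (553 ± 36.2 TPM) to KLF3 (70.6 ± 1.91), KLF13 (61.1 ± 2.87), KLF16 (43.1 ± 10.5), KLF6 (31.0 ± 4.07), KLF10 (26.3 ± 1.10), KLF11 (15.9 ± 1.57), KLF2 (0.396 ± 0.201), KLF7 (0.338 ± 0.131) and KLF12 at 0 (SD, n = 3 each). The ranges of KLF16 and KLF6, of KLF6 and KLF10, and of KLF2 and KLF7 overlapped in the controls. With the MEN1 shRNA, KLF16 (21.8 ± 1.57 TPM) lay below KLF10 (47.7 ± 2.35) and KLF6 (62.4 ± 25.1), and KLF2 (10.9 ± 4.86) came close to KLF11 (15.2 ± 1.79), with overlapping ranges. The order, and the shares below, hold for TPM. KLF13 FPKM was on average 12.7 times its scaled coverage in the controls. On that coverage the KLF13 control mean of 2.19 lay below KLF16 (16.0), KLF6 (9.62), KLF10 (9.55) and KLF11 (4.17). The cause was not tested.

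The summed TPM of the 10 genes was 841, 863 and 858 in the MEN1 shRNA libraries against 840.1, 801 and 765 in the control libraries. KLF1 supplied 64.7%, 61.5% and 61.1% of this sum in the former and 70.7%, 67.7% and 68.5% in the latter. The members other than KLF1 together had 249 ± 9.26 TPM in the controls and 321 ± 20.5 TPM with the MEN1 shRNA (SD, n = 3 each), with no overlap. These sums describe the members and were not tested.

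**Figure D3:**
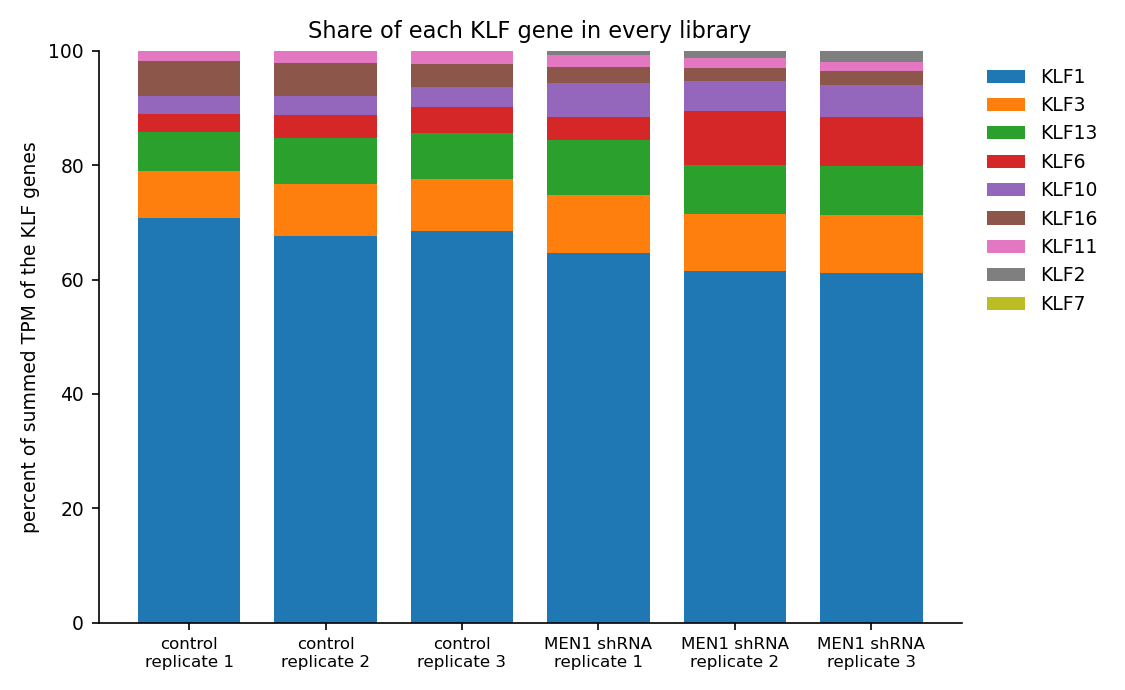
Percent of the summed TPM of the KLF genes held by each gene, 1 bar per library. KLF1 holds 67.7% to 70.7% in the 3 control libraries and 61.1% to 64.7% in the 3 MEN1 shRNA libraries, and the KLF16 segment is narrower with the MEN1 shRNA.

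The rest of the family and the related SP factors were counted from a list of 17 genes. Of these 11 were tested, 7 rose, 1 fell and 3 did not pass, with a median log2 fold change of 0.52 against -0.07 over all genes, of which 22.1% rose and 31.5% fell. Of the 11, KLF4, SP5 and SP6 reached 1 TPM in no control library and entered through the MEN1 shRNA libraries alone, so the count and the median lean upward by construction. KLF4, a pluripotency and myeloid factor, measured 1.97, 1.82 and 2.48 TPM against 0.0544, 0.114 and 0.202 TPM (log2 fold change 1.46, adjusted p 0.0024 in limma over all genes above 0 TPM in at least 1 library). KLF5, an activator of epithelial and progenitor growth, rose from 1.19 ± 0.324 to 3.39 ± 0.449 TPM, and the SIN3A-binding KLF9 from 16.1 ± 0.772 to 22.9 ± 1.39 TPM (SD, n = 3 each). SP2 rose from 24.1 ± 1.55 to 34.9 ± 1.92 TPM, and SP6 from 0.0198 ± 0.0249 to 2.46 ± 0.811 TPM, being listed at 0 in control replicate 3. KLF15 fell from 7.68 ± 0.410 to 5.68 ± 0.648 TPM (adjusted p 0.0215 in limma), a call lost on leaving out any 1 of MEN1 shRNA replicates 2 and 3 and control replicates 2 and 3 (adjusted p 0.0557 to 0.0734). KLF8, the CtBP-binding relative of KLF3 and KLF12, measured 2.38 to 2.81 TPM against 2.47 to 2.93 TPM and did not pass (log2 fold change -0.05, 95% interval -0.35 to 0.25). KLF14, KLF17 and KLF18 stayed under 0.1 TPM.

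**Figure D4:**
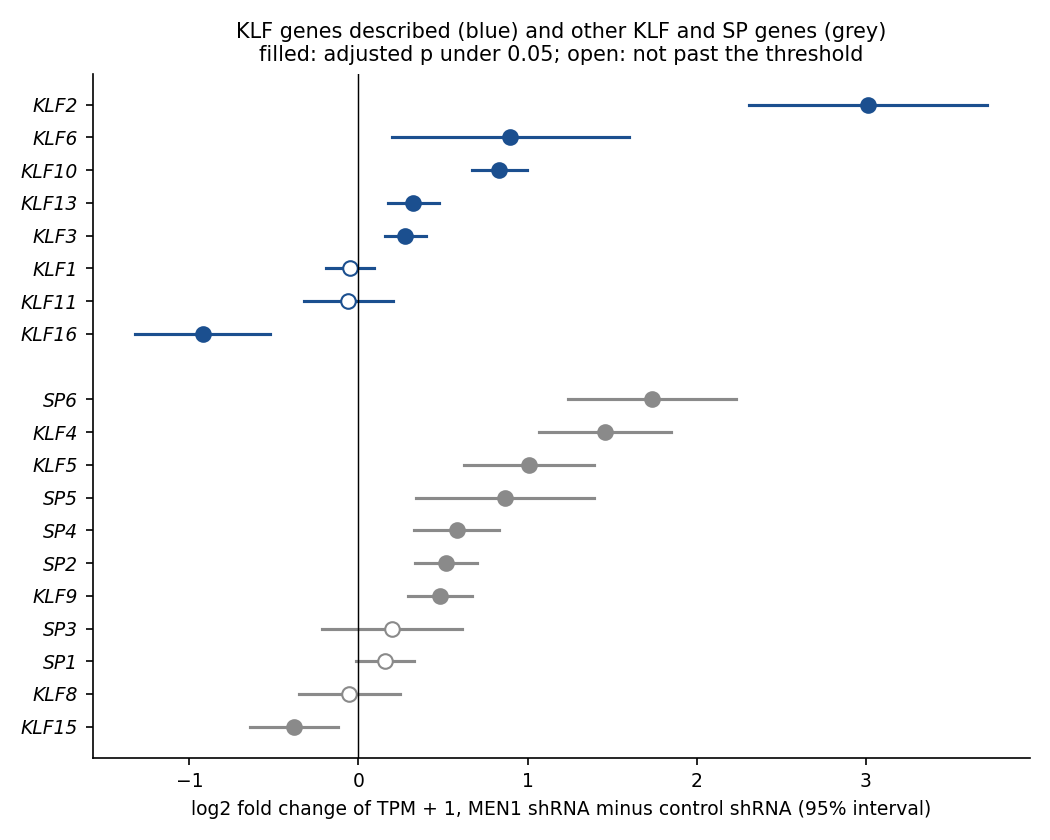
log2 fold change of TPM + 1 (MEN1 shRNA minus control shRNA) with its 95% interval for the 8 tested KLF genes described here (blue) and 11 tested KLF and SP genes beyond them (grey); filled points passed the threshold. KLF2 is farthest right at 3.01, KLF16 farthest left at -0.92, and the intervals of KLF1, KLF11, KLF8, SP1 and SP3 cross 0.

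Of 13 genes for partners of KLF proteins, all tested, 3 rose, 4 fell and 6 did not pass, with a median log2 fold change of 0.03. These counts are near the background of 22.1% higher and 31.5% lower over all tested genes and are no result about the partners as a group. KAT2B, an acetyltransferase that binds KLF1 and KLF2, rose from 26.5 ± 1.32 to 83.5 ± 10.2 TPM (log2 fold change 1.61). WWP1, a ubiquitin ligase that acts on KLF2 and KLF5, and the acetyltransferase CREBBP rose by 0.67 and 0.44 on the log2 scale. SMARCC1, a subunit of the SWI/SNF complex that works with KLF1, fell from 85.6 ± 4.63 to 47.9 ± 4.43 TPM, and the corepressor SIN3B from 35.8 ± 3.21 to 23.4 ± 1.49 TPM (SD, n = 3 each). Adjusted p-values in limma ran from 2.97e-05 (KAT2B) to 0.00107 (SIN3B). The corepressor genes CTBP1, CTBP2 and SIN3A did not pass. Their log2 fold changes were -0.02, 0.05 and 0.03, with 95% intervals of -0.23 to 0.19, -0.08 to 0.18 and -0.20 to 0.26. Corepressor genes thus differed, since SIN3B fell as given above. FHL3, another partner on the list, also fell (log2 fold change -0.62, adjusted p 0.00192 in limma).

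The nearest tested gene on either side was also read for each of the 10 members. Of these 20 neighbours, 4 rose, 8 fell and 8 did not pass, where 22.1% of all tested genes rose and 31.5% fell, and nothing is read from this count. The neighbours of KLF1 moved in opposite directions. ENSG00000267735, 334 bases away, rose by 0.60 on the log2 scale (adjusted p 0.0289 in limma). GCDH, 3959 bases away, fell from 63.4 ± 3.30 to 47.4 ± 2.75 TPM (SD, n = 3 each). Beside KLF16, REXO1 did not pass (log2 fold change -0.09). The neighbours of KLF3 are distant: TBC1D1, 525022 bases away, fell by 1.77 on the log2 scale, and FAM114A1 lies 166160 bases away. FAM114A1, among the 4 that rose, had 1.66 ± 0.620 TPM against 0.340 ± 0.235 TPM in the controls (log2 fold change 0.98). It passed the filter only through the MEN1 shRNA libraries, so its rise was fixed by the filter. This set is defined by position alone and was added after the values of the members were seen.

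**Figure D5:**
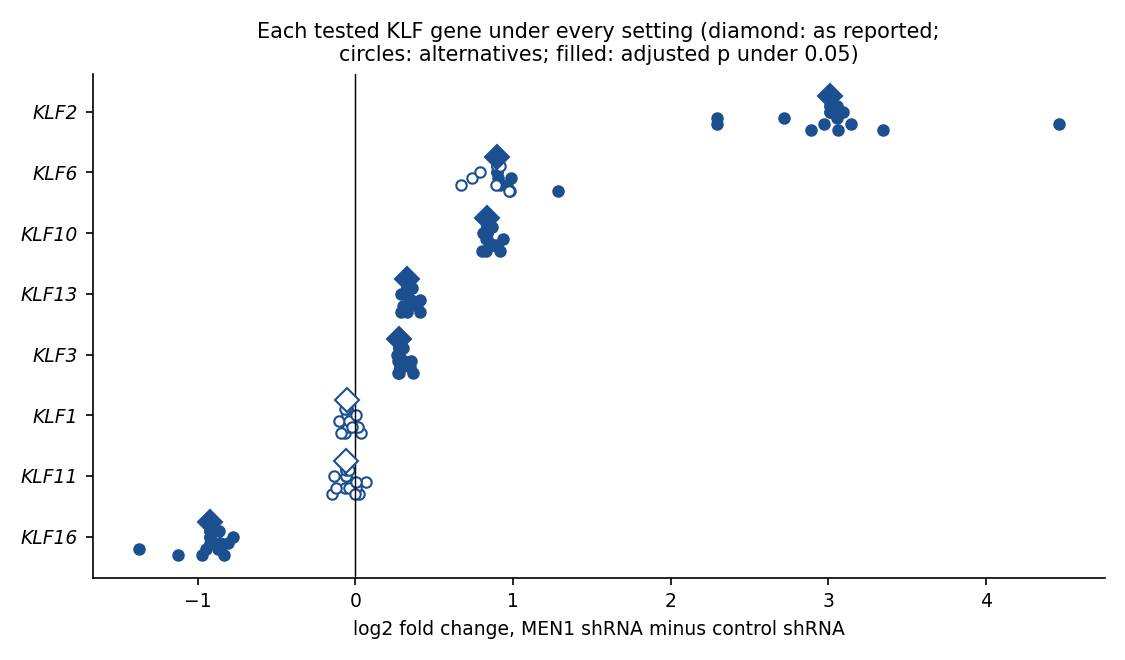
log2 fold change of each tested KLF gene as reported (diamond) and under 16 alternative settings (circles); filled symbols have an adjusted p under 0.05. KLF6 ranges from 0.67 to 1.28 with both open and filled symbols, KLF1 and KLF11 are open on both sides of 0, and KLF2, KLF3, KLF10, KLF13 and KLF16 are filled in every setting.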

How the data were processed

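Poly(A) RNA libraries were made with a directional kit, per the labels' protocols. Per the submitters' processing notes, STAR 2.7.1a, StringTie 2.0.4, Picard 2.20.4, Trimmomatic and FastQC were used with hg38, and coordinates are those of the deposited tables. The annotation and strand setting are not stated: neither was given in the sources used here. The authors deposited, per library, TPM (summing to 1000000), FPKM and mean coverage per base (a signal not scaled for depth). In control replicate 2, 3 residues just below 0 were set to 0.

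Genes reaching 1 TPM in 3 or more libraries were tested on log2(TPM + 1) with limma 3.58.1 in R 4.3.3 (mean-variance trend, 2-sided, 3 against 3 libraries), checked on simulated data. The smallest exact permutation p is 0.1. Read counts were not analysed here, so no count model was fitted. Aligned bases and scaled coverage were derived from the most common FPKM to coverage ratio of a library. Overlapping rows reach at most 1.93 TPM. Promoters, tables and figures used Python 3.11.15 with matplotlib 3.10.9, pandas 2.3.3 and NumPy 2.4.6, and exact permutation tests enumerated every split of the libraries. Named genes are all members, MEN1, other KLF genes past the filter, and up to 5 called genes per list with the lowest adjusted p; others named were chosen after their values were seen. Members and lists were chosen with earlier results of these data known. Alternatives varied the pseudocount, unit, filter, scaling, trend, block and libraries.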

Additional observations from a re-analysis of the deposited data

How the results depend on the processing

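Alternatives were set against the main results 230 times, and 214 of these counted as unchanged. For a gene this meant the same direction and call, and for a count a move of at most 1.5 times. For the KLF1 share of summed TPM it meant a shift below the pooled SD of the groups. KLF6 kept its rise but not its call over all genes above 0 TPM in at least 1 library (0.90, adjusted p 0.140 in limma). The same held without the mean-variance trend (0.90, 0.0588) and on gene coverage (0.89, 0.0737), a setting chosen after seeing the data. The uncalled KLF1 turned to 0.036 under median-of-ratios scaling and to 0.015 once globin and mitochondrial genes were taken out before rescaling. The uncalled KLF11 turned to 0.023 and 0.0030 under these and to 0.069 under quantile normalization, and KLF8 to 0.011 under median-of-ratios scaling. The cause was not tested. A mean TPM of 5 or more left 4 called genes in the KLF and SP list, since fewer were tested. Over single libraries left out, the log2 fold change ran from -0.090 to 2.13e-04 for KLF1, from -0.15 to 0.0052 for KLF11 and from 0.67 to 1.28 for KLF6, and 5 to 6 members were called. Deviations of libraries with the same replicate number were uncorrelated (0.017, -0.027 and -0.012), and 2 of 6 libraries correlated best with their own number, so the numbers were not taken to pair the samples. With the replicate block, 7012 genes and 6 members were called, and KLF15 was not (adjusted p 0.0561). Depth limits the values of KLF2 in the controls and of KLF7.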
